A study of Mus musculus with 16 samples.

Results

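The thalamic marker genes are 10 genes that mark neurons of the mouse thalamus: Tcf7l2, Lef1, Zic1, Slc17a6, Calb2, Prkcd, Rgs16, Tnnt1, Synpo2 and Plekhg1. They were taken by symbol from the count table, in which they are 10 of 55385 genes, and they were measured here in hippocampus as a sign of what the dissected tissue held. Hippocampi of mice 9 months old were profiled by sequencing of polyadenylated RNA, with 16 libraries, 4 per genotype, and each genotype with 2 females and 2 males. The study compared 4 groups. 5xFAD-Dp16 mice carried both genetic alterations. 5xFAD mice carried the human transgenes of an Alzheimer's disease model, which carry familial mutations and are driven by Thy1 promoter sequences that act mainly in neurons. Dp16 mice carried a duplication of the stretch of mouse chromosome 16 that matches most of human chromosome 21. Wild-type (WT) mice were C57BL/6J, while the labels give no strain for the other groups. The labels list no treatment for any group, and libraries are named by group and by the number in their label.

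The thalamus is the relay of the diencephalon that passes sensory and motor signals to the cortex, and its dorsal part lies directly under the hippocampus. Most of its relay neurons use glutamate and load it into vesicles with VGLUT2, the product of Slc17a6, whereas pyramidal and granule cells of the hippocampus use mainly VGLUT1, the product of Slc17a7. Its neurons keep a set of transcription factors of the TCF/LEF, ZIC and homeobox families into adult life.

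All 10 genes passed the filter on low counts that left 17132 genes for testing, with between 9 and 3853 reads per gene and library. Library totals ran between 16922937 and 25308693 counts. Levels are given as CPM, read counts scaled to a common library size, and the marker score of a library is the mean over the 10 genes of the log2 CPM minus the gene's median over the 16 libraries. None of the 10 genes lies on chromosome 16, so none is in the duplicated stretch of Dp16.

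The genes were high together in 6 libraries and low together in the other 10. The score was 1.71 in 5xFAD-Dp16 1, between 1.56 and 1.70 in 5xFAD 6, 13 and 15, 2.22 in Dp16 14 and 1.82 in WT 4. The other 10 libraries scored between -0.576 and -0.105. The 6 high libraries are thus 1 of 4 in 5xFAD-Dp16, 3 of 4 in 5xFAD, 1 of 4 in Dp16 and 1 of 4 in WT, and 3 of them are from females and 3 from males. The summed level of the 10 genes was 549.3, 185.9, 142.1 and 201.9 CPM in 5xFAD-Dp16 1, 8, 9 and 11, and 538.5, 178.2, 525.6 and 637.6 CPM in 5xFAD 6, 10, 13 and 15. It was 153.8, 178.0, 145.0 and 848.2 CPM in Dp16 3, 5, 12 and 14, against 195.9, 625.6, 182.4 and 208.7 CPM in WT 2, 4, 7 and 16. Each of the 10 genes was higher in all 6 of these libraries than in any of the other 10. Of all genes tested, 1.45% (249) had this pattern and 2.07% (355) had its mirror image. The 6 libraries were picked by these same genes, so their separation by the 10 genes is a description and no test. In bulk tissue, fewer cells of a type and less RNA per cell cannot be told apart.

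**Figure D1:**
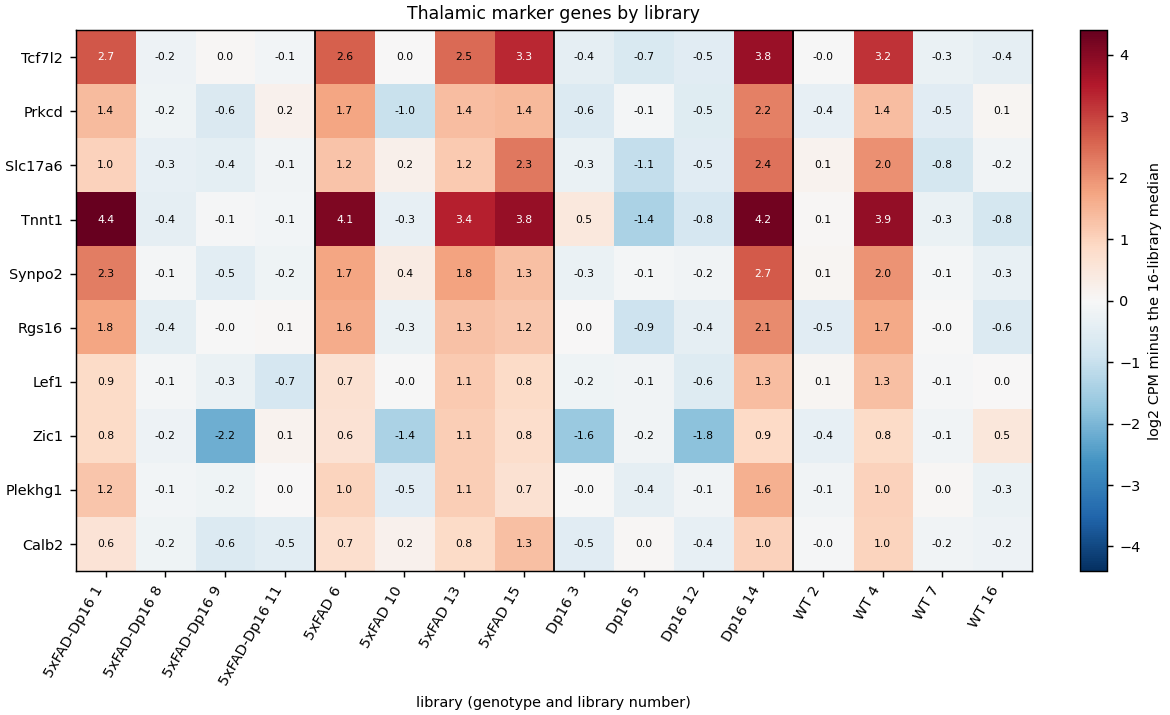
Heat map of the 10 thalamic marker genes (rows) in the 16 hippocampus libraries (columns, by genotype); colour gives the log2 CPM minus the gene's median over the libraries. 5xFAD-Dp16 1, 5xFAD 6, 13 and 15, Dp16 14 and WT 4 stand out in every row.

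Among the transcription factors, Tcf7l2 encodes a DNA-binding partner of beta-catenin at the end of the Wnt pathway, kept on in adult thalamic neurons and also present in maturing oligodendrocytes. In the order of the library numbers, Tcf7l2 had 68.1, 8.7, 10.4 and 9.25 CPM in 5xFAD-Dp16, 62.8, 10.1, 56.6 and 100.05 CPM in 5xFAD, 7.72, 6.25, 7.03 and 141 CPM in Dp16, against 10.1, 92.6, 8.14 and 7.56 CPM in WT libraries. The 6 high libraries ran 5.62 to 14.1 times the median of all libraries, and the lowest of them was 5.46 times the highest of the other 10, which stayed within a 1.66-fold range. The group means were 24.1 ± 29.3 CPM in 5xFAD-Dp16, 57.4 ± 36.9 CPM in 5xFAD, 40.6 ± 67.2 CPM in Dp16 and 29.6 ± 42 CPM in WT (SD, n = 4 each), so the SD exceeded the mean in every group but 5xFAD. Lef1 encodes a factor of the same family that binds the same DNA letters and is also made by brain endothelium. Lef1 had 21, 11, 9.51 and 6.91 CPM in 5xFAD-Dp16, 18.3, 11.5, 25.7 and 20.9 CPM in 5xFAD, 10.2, 10.5, 7.74 and 29.5 CPM in Dp16, against 12.3, 29, 11.2 and 11.6 CPM in WT libraries. The same 6 libraries were highest, with a gap of 1.48-fold between the lowest of them and the highest of the others. Zic1 encodes a zinc-finger factor of diencephalic and cerebellar neurons that meningeal cells also make. Zic1 had 68.8, 32.5, 8.54 and 42.3 CPM in 5xFAD-Dp16, 59.1, 14.7, 80.6 and 64.9 CPM in 5xFAD, 12.2, 34, 10.8 and 69.8 CPM in Dp16, against 29.9, 68.8, 34.6 and 53.7 CPM in WT libraries. Its 6 high libraries cleared the others by 1.1-fold, the smallest gap of the 10 genes, and the other 10 spread over a 6.29-fold range.

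That spread of Zic1 set it apart from the other genes. In the 10 libraries of low marker score it was at 8.54 to 14.7 CPM in 5xFAD-Dp16 9, 5xFAD 10, Dp16 3 and Dp16 12, and at 29.9 to 53.7 CPM in the other 6. Scores over 12 choroid plexus genes, such as Ttr, which encodes the thyroxine carrier of cerebrospinal fluid, were between -2.16 and -1.59 in the 4 libraries of low Zic1. In the 6 of higher Zic1 the choroid plexus scores were between -0.293 and 3.97. Dp16 14 had a choroid plexus score of -1.54 with Zic1 at 69.8 CPM. Of 13 meningeal fibroblast genes, listed after the data had been seen, none separated the 6 libraries of high markers, and their scores were 0.0389 to 1.21 in the 6 and -0.886 to 1.02 in the other 10. Among those 10, the meningeal scores were -0.886 to 0.398 in the 4 libraries of low Zic1. They were -0.682 to 1.02 in the 6 of higher Zic1. The part of choroid plexus or meninges in the Zic1 level was not tested. Summed over the 12 genes, choroid plexus levels were 75.8 to 3090.0 CPM in 5xFAD-Dp16, 62.9 to 6340.0 CPM in 5xFAD, 53.7 to 990.0 CPM in Dp16 and 470.0 to 8390.0 CPM in WT, and none of the 12 was at 0 in all libraries.

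Slc17a6, the vesicular glutamate transporter, followed the 6 libraries with a different order among them. Slc17a6 had 55.2, 21.2, 19.8 and 24.4 CPM in 5xFAD-Dp16, 64.4, 31.5, 60.4 and 135 CPM in 5xFAD, 22.2, 12.9, 19.1 and 142 CPM in Dp16, against 30, 109, 15.6 and 24.2 CPM in WT libraries. 5xFAD 15 and Dp16 14 were more than 2 times as high as 5xFAD-Dp16 1, 5xFAD 6 and 5xFAD 13, and the 10 libraries of low marker score were lower than all of these. The group means were 30.2 ± 16.8 CPM in 5xFAD-Dp16, 72.9 ± 44.2 CPM in 5xFAD, 49.1 ± 62.1 CPM in Dp16 and 44.7 ± 43.2 CPM in WT (SD, n = 4 each). Calb2 encodes calretinin, a calcium-binding protein of midline thalamic neurons that is also made by hippocampal interneurons and mossy cells. Calb2 had 69.8, 40.1, 30.2 and 32.6 CPM in 5xFAD-Dp16, 75.7, 51.8, 81.3 and 113 CPM in 5xFAD, 32.5, 46.9, 35.2 and 92.1 CPM in Dp16, against 44.1, 89.7, 40.9 and 38.5 CPM in WT libraries. Its highest library was 5xFAD 15, and its levels ran only 1.53 to 2.48 times the median in the 6 high libraries. The group means of Calb2 were 43.2 ± 18.2 CPM in 5xFAD-Dp16, 80.5 ± 25.2 CPM in 5xFAD, 51.7 ± 27.7 CPM in Dp16 and 53.3 ± 24.4 CPM in WT (SD, n = 4 each).

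Prkcd and Rgs16 encode signalling proteins, the delta form of protein kinase C and a GTPase activator that shuts off G protein signals. Prkcd had 88.5, 29.7, 21.5 and 38.3 CPM in 5xFAD-Dp16, 113, 16.9, 87.1 and 89.8 CPM in 5xFAD, 22.1, 31.6, 23.2 and 155 CPM in Dp16, against 26, 86.7, 23.6 and 35.7 CPM in WT libraries. Rgs16 had 36.5, 7.99, 10.5 and 11.2 CPM in 5xFAD-Dp16, 33.2, 8.79, 26.3 and 24.6 CPM in 5xFAD, 10.8, 5.61, 8.19 and 45.4 CPM in Dp16, against 7.52, 34.3, 10.7 and 7.06 CPM in WT libraries. Dp16 14 was the highest library for both, and the lowest of the 6 high libraries was 2.26 times (Prkcd) and 2.19 times (Rgs16) the highest of the other 10. The group means of Prkcd were 44.5 ± 30.1 CPM in 5xFAD-Dp16, 76.7 ± 41.5 CPM in 5xFAD, 58.1 ± 65 CPM in Dp16 and 43 ± 29.6 CPM in WT (SD, n = 4 each).

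Tnnt1, Synpo2 and Plekhg1 encode proteins tied to the cytoskeleton. Tnnt1 is the troponin T of slow skeletal muscle, best known from muscle fibres. Tnnt1 had 31.1, 1.07, 1.35 and 1.28 CPM in 5xFAD-Dp16, 26, 1.09, 16 and 21.4 CPM in 5xFAD, 1.97, 0.481, 0.801 and 28.4 CPM in Dp16, against 1.48, 22.1, 1.13 and 0.798 CPM in WT libraries. It had the widest range of the 10 genes, 64.7-fold between 5xFAD-Dp16 1 and Dp16 5, and its lowest high library was 8.12 times the highest of the other 10, which held 9 or more reads each. Synpo2 is an actin-binding protein related to synaptopodin. Synpo2 had 49.4, 9.68, 7.34 and 9.02 CPM in 5xFAD-Dp16, 34.1, 13.2, 35.4 and 25.9 CPM in 5xFAD, 8.34, 9.67, 9.12 and 66.3 CPM in Dp16, against 10.9, 40.8, 9.6 and 8.15 CPM in WT libraries. Dp16 14 was highest at 6.46 times the median of all libraries. Plekhg1 is a guanine nucleotide exchange factor. Plekhg1 had 61, 24, 22.9 and 26.6 CPM in 5xFAD-Dp16, 51.8, 18.6, 56.2 and 41.6 CPM in 5xFAD, 25.8, 20, 23.8 and 77.6 CPM in Dp16, against 23.7, 52.8, 26.9 and 21.4 CPM in WT libraries. Its 10 low libraries lay within a 1.45-fold range, the narrowest of the 10 genes, and its 6 high ones at 1.59 to 2.96 times the median.

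**Figure D2:**
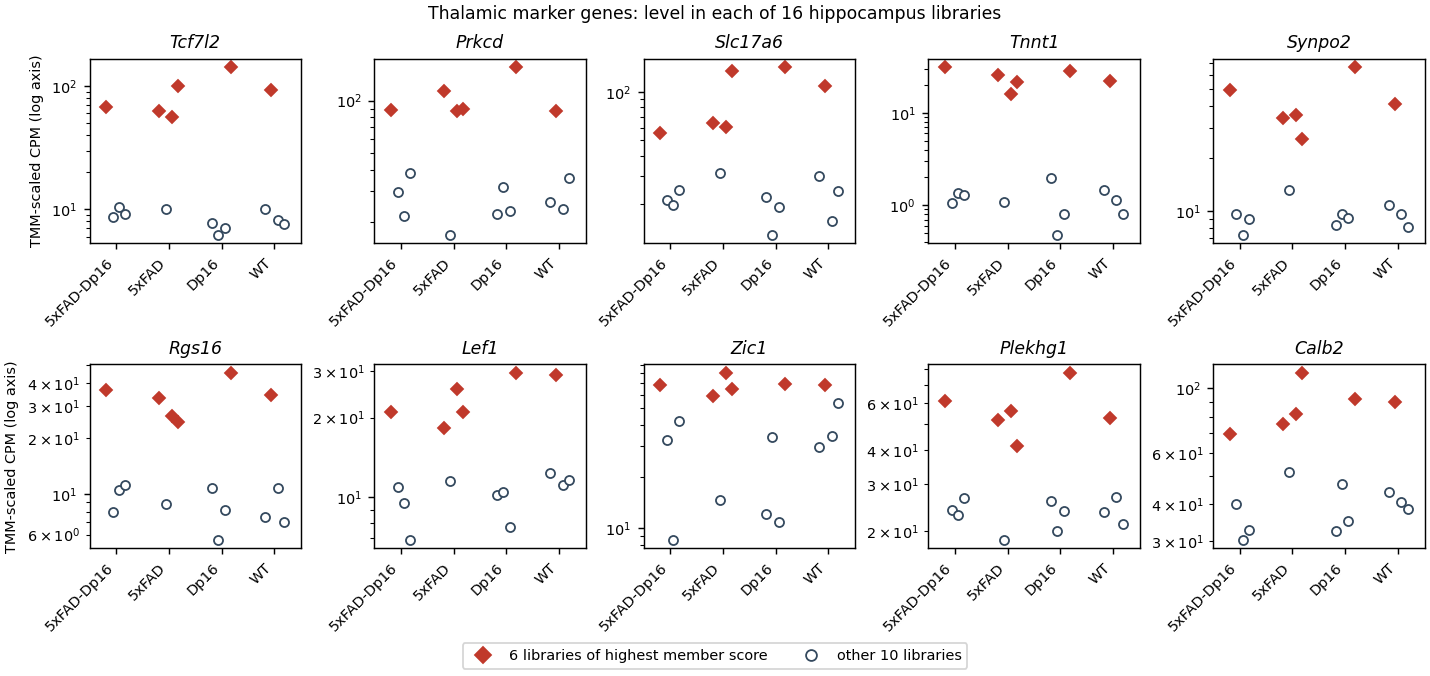
Level of each thalamic marker gene in CPM (log axis) for each of the 16 libraries, with libraries grouped as 5xFAD-Dp16, 5xFAD, Dp16 and WT. One library in each of 5xFAD-Dp16, Dp16 and WT and 3 in 5xFAD lie above all others for every gene.

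By position (mouse build GRCm38, GENCODE M21), the genes lie on 8 chromosomes. The deposited counts are labelled with a later GENCODE release, and genes were matched by identifier without version. Positions and overlaps given here are those of M21. Tcf7l2 lies on chromosome 19 at 55741820 to 55933654, Tnnt1 on chromosome 7 at 4504570 to 4516382 on the minus strand, and Slc17a6 on chromosome 7 at 51622006 to 51671119. Prkcd lies on chromosome 14 at 30595354 to 30626210, Synpo2 on chromosome 3 at 123076519 to 123236149 and Calb2 on chromosome 8 at 110137502 to 110168210, all on the minus strand. Rgs16 lies on chromosome 1 at 153740349 to 153745468, Lef1 on chromosome 3 at 131110471 to 131224356 and Plekhg1 on chromosome 10 at 3740364 to 3967303, on the plus strand like Tcf7l2 and Slc17a6. Zic1 lies on chromosome 9 at 91358058 to 91365810 on the minus strand, and its exons overlap those of Zic4 on the other strand. Zic4 had at most 164 reads in a library. The strand setting of the counting is not given in the sources used here, so reads of Zic1 and Zic4 in the overlap cannot be told apart. Rgs16 overlaps Gm28513 (at most 3 reads) and Lef1 overlaps Gm43352 (at most 34 reads) in the same way.

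The RefSeq promoter table (GRCm38.p6) held 15 windows for 9 of the 10 genes, Calb2 being the one without. Since Tcf7l2 and Lef1 bind the letters CTTTGAT and CTTTGAA, these were searched on both strands of the 250 bases before and 50 after each start. They were in 0 of the 15 windows, and in 8.65% (2842) of all 32851 windows. The letters TATAAA, searched after the sequences had been seen, were on either strand of the 250 bases before the start in 5 of the 15 windows and in 12.4% of all. A match or its absence describes these windows only. The 250 bases before the start of the genes with the widest spread between libraries are shown 5′ to 3′, with TATAAA in capitals. For Tnnt1 they lie at chr7:4515976-4516225 on the minus strand (GC 59.2%), and for Tcf7l2, the first of 2 windows, at chr19:55741560-55741809 on the plus strand (GC 72.8%, where the median of all windows was 52.4%). The RefSeq start used for Tnnt1 lies downstream of the GENCODE start at 4516382, so this window falls inside the gene as placed above.
Tnnt1: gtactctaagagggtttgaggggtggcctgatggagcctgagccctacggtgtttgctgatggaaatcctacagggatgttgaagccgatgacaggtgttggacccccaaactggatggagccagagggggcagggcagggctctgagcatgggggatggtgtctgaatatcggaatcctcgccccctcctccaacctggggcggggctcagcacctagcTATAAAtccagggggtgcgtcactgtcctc
Tcf7l2: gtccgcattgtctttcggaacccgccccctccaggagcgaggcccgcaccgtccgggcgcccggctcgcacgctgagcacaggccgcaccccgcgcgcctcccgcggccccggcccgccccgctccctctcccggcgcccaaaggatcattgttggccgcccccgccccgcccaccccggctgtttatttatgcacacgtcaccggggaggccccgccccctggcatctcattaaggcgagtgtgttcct

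By the deposited values per length (RPKM, read counts scaled by gene length and library total), the median over the 16 libraries fell in the order Calb2 24.8, Prkcd 10.1, Zic1 6.77, Slc17a6 6.44, Rgs16 4.47, Plekhg1 3.36, Lef1 3.25, Tcf7l2 2.2, Tnnt1 1.26 and Synpo2 0.768. Calb2 was above Prkcd, and Prkcd above Zic1, in all 16 libraries. Zic1 was above Slc17a6 in 5 of 16 libraries, Plekhg1 above Lef1 in 10 and Lef1 above Tcf7l2 in 9, so these neighbours had no fixed order.

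The spread of these genes between libraries of 1 genotype was large next to that of other genes. The SD of log2 CPM within groups was 2.27 for Tnnt1, 1.72 for Tcf7l2, between 1.06 and 1.14 for Slc17a6, Synpo2, Prkcd, Zic1 and Rgs16, 0.72 for Plekhg1, 0.68 for Lef1 and 0.57 for Calb2, while the median gene had 0.22. Tnnt1 ranked 22 among the 17132 genes. The members lay between the percentiles 86.62 and 99.87 of all genes tested.

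The 6 high libraries did not hold the 10 genes in 1 fixed ratio. The excess of a gene was taken as its CPM minus its median over the 16 libraries, as a share of the excess summed over the 10 genes. Tcf7l2 had 17.4% of the excess in 5xFAD-Dp16 1, 16.3%, 15% and 21.3% in 5xFAD 6, 13 and 15, 20.8% in Dp16 14 and 20.1% in WT 4, a 1.42-fold range that was the narrowest of the 10. Slc17a6 had 8.36% in 5xFAD-Dp16 1, 11.5%, 10.7% and 25.6% in 5xFAD 6, 13 and 15, 18.1% in Dp16 14 and 19.9% in WT 4, a 3.06-fold range. Synpo2 had its smallest share where Slc17a6 had its largest, with 11.7% in 5xFAD-Dp16 1, 7.38%, 8.1% and 3.69% in 5xFAD 6, 13 and 15, 8.86% in Dp16 14 and 7.43% in WT 4. 5xFAD 15 thus had the largest share of Slc17a6 and of Calb2 (16%) and the smallest of Synpo2, Rgs16 (3.28%) and Plekhg1 (3.64%). Scores over 11 genes of the habenula, a neighbour of the thalamus whose neurons also use VGLUT2, were 0.306 in 5xFAD-Dp16 1, 0.305, 0.353 and 1.5 in 5xFAD 6, 13 and 15, 0.805 in Dp16 14 and 1.11 in WT 4. In the other 10 libraries they were -0.373 to 0.217. Of the 11 genes, 2 were higher in all 6 libraries than in any of the other 10, against 1.45% of all genes tested. The summed level of the habenula genes was 55.3 to 63.7 CPM in 5xFAD-Dp16, 45.4 to 57.6 CPM in 5xFAD, 56.3 to 64.8 CPM in Dp16 and 56 to 71.8 CPM in WT, none was at 0 in all libraries, and its part in the Slc17a6 level was not tested.

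**Figure D3:**
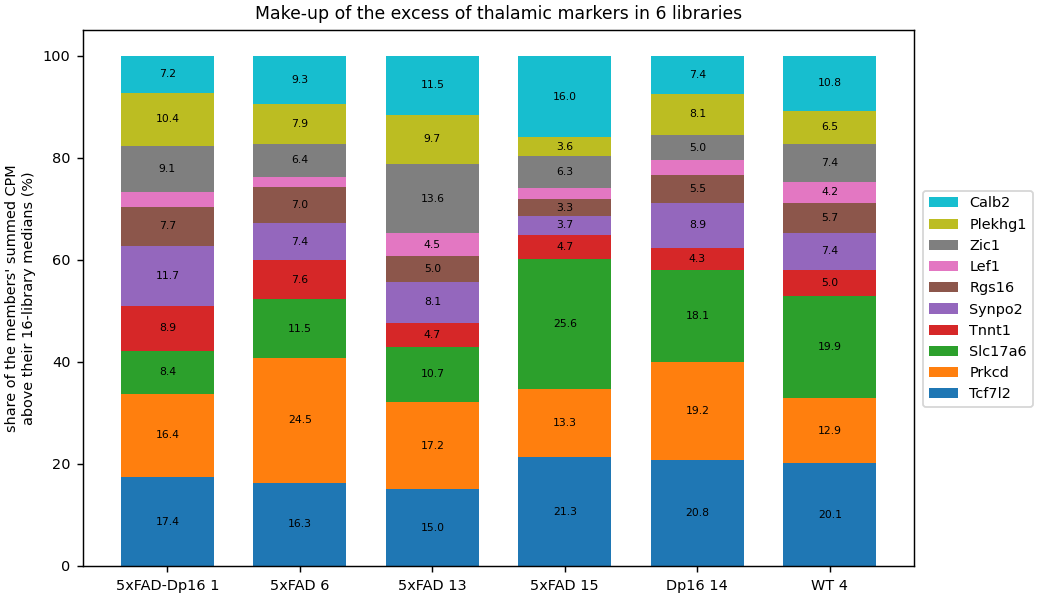
Share of each thalamic marker gene in the excess of the 10 genes over their medians across the 16 libraries, in percent, for the 6 libraries of high marker score. The share of Slc17a6 runs between 8.36% in 5xFAD-Dp16 1 and 25.6% in 5xFAD 15, while that of Tcf7l2 stays between 15% and 21.3%.

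The 10 genes were set beside a list of 20 other thalamic genes. This list and the others were chosen with earlier results of these data known, and the 6 libraries were picked by the 10 markers. The counts over lists are thus a description and no test. Of the 20 genes, 12 were higher in each of the 6 libraries than in any of the other 10, against 1.45% of all genes tested. None was lower in all of them. The 12 were Shox2, Gbx2, Foxp2, Ntng1, Rora, Zfhx3, Ramp3, Vav3, Amotl1, Adarb1, Nexn and Grid2ip. Shox2, a homeobox factor of thalamic neurons, was at 16 to 39.1 CPM in the 6 libraries and 0 to 0.732 CPM in the other 10. Gbx2, a homeobox factor of the developing thalamus, was at 1.26 to 5.67 CPM in the 6 and 0 to 0.247 CPM in the 10. The rest of the list overlapped, namely Lhx9, Zic4, Ptpn3, Ptpn4, Slc17a8, Cacna1g, Kcnc2 and Hcn2. Slc17a8 was at 2.28 to 7.03 CPM in the 6 and 2.96 to 7.93 CPM in the 10. Kcnc2 and Hcn2, channel genes that cortical and hippocampal neurons also express, varied least. The list's score was 0.886 to 1.41 in the 6 libraries and -0.53 to -0.0542 in the 10, and its summed level was 832 to 1240.0 CPM in 5xFAD-Dp16, 792 to 1250.0 CPM in 5xFAD, 874 to 1590.0 CPM in Dp16 and 847 to 1300.0 CPM in WT. No listed gene was at 0 in all libraries. None of the 20 was called by edgeR in 5xFAD against WT, where 7.26% of all genes were, and their median log2 fold change was 0.24 beside 0.027 over all genes. None was called in 5xFAD-Dp16 against 5xFAD, where 0.304% of all genes were, and their median was -0.36 beside -0.0296.

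Astrocytes of the diencephalon and brainstem differ from those of the telencephalon in the level of some genes, transport genes among them. All 4 such genes listed were higher in the 6 libraries than in the other 10, against 1.45% of all genes tested. Agt, the angiotensin precursor, was at 91.0 to 170.0 CPM in the 6 and 17.7 to 55.0 CPM in the 10. Slc6a11, a GABA transporter, was at 347 to 585 CPM in the 6 and 188 to 246 CPM in the 10. Slc6a9, a glycine transporter, and Itih3 had the same order. None of the 4 was called in 5xFAD against WT, where 7.26% of all genes were, with a median log2 fold change of 0.69. None was called in 5xFAD-Dp16 against 5xFAD, where 0.304% of all genes were, with a median of -0.65.

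Genes of the telencephalon ran the other way in part. Of 10 listed, 3 were lower in all 6 libraries than in the other 10, against 2.07% of all genes tested, and none was higher. Slc17a7, the VGLUT1 gene, was at 472 to 1300.0 CPM in the 6 and 1470.0 to 2000.0 CPM in the 10. Neurod6, a factor of cortical and hippocampal pyramidal neurons, was at 48.8 to 127 CPM in the 6 and 134 to 214 CPM in the 10. Of 12 genes of CA1 and CA3 pyramidal cells, Pou3f1, Mpped1 and Neurod6 were lower in all 6 libraries, and of 9 genes of dentate granule cells none was. The telencephalon list had a median log2 fold change of -0.45 in 5xFAD against WT with 0 of 10 called, where 7.26% of all genes were called and their median was 0.027. The CA1 and CA3 list had -0.62 in the same comparison with 2 of 12 called, Wfs1 at -0.65 (SE 0.17, adjusted p = 0.0276) and Man1a at -0.65 (SE 0.18, adjusted p = 0.0448). The summed level of the telencephalon genes was 2310.0 to 3010.0 CPM in 5xFAD-Dp16, 1050.0 to 2970.0 CPM in 5xFAD, 2030.0 to 3460.0 CPM in Dp16 and 2130.0 to 3100.0 CPM in WT. Among 11 genes of mature oligodendrocytes, Mbp, the myelin basic protein gene, was at 3870 to 7010 CPM in the 6 and 2530.0 to 3850 CPM in the 10, and the other 10 overlapped. Of 9 endothelial genes, which bear on Lef1, and of 15 Wnt target and pathway genes tested, which bear on Tcf7l2 and Lef1, none separated the 6 libraries in either direction. What these cell types contribute to the levels of the 10 markers was not tested.

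**Figure D4:**
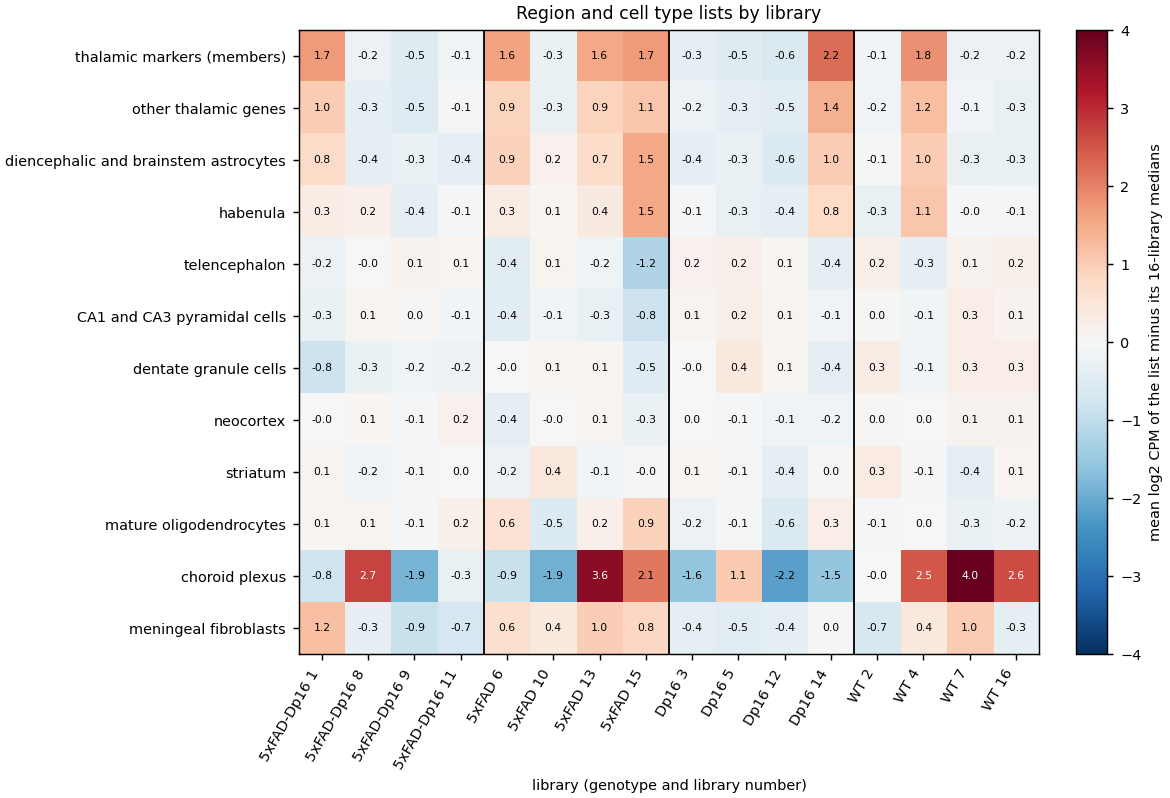
Mean log2 CPM minus the median over libraries for each gene list (rows) in the 16 hippocampus libraries (columns, by genotype). The thalamic marker genes, the other thalamic genes and the diencephalic astrocyte genes are high in the same 6 libraries, in which the telencephalon list is lowest.

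The genes whose levels followed the mean pattern of the 10 markers most closely were found by the root mean square difference over the 16 libraries, on the log2 scale, between a gene's centred log2 CPM and that mean. They were Plcb4 (0.31), Ramp3 (0.34), Zfhx3 (0.38), Patj (0.39), Hcn4 (0.40), Hs3st3b1 (0.41), Epha8 (0.41) and Tal1 (0.43), and each was higher in the 6 libraries than in the other 10. These genes were picked by likeness to the pattern that also picked the 6 libraries, so their separation is a description and no test. Plcb4, a phospholipase C gene, was at 62.8 to 119 CPM in the 6 and 22.3 to 34.2 CPM in the 10. Ramp3, a partner of calcitonin-family receptors, was at 13.6 to 27.9 CPM in the 6 and 2.58 to 6.68 CPM in the 10. Ramp3 and Zfhx3 also stand in the list of other thalamic genes.

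Against this spread, the genotypes were compared with edgeR's quasi-likelihood test, with sex as a term and p adjusted by Benjamini-Hochberg over the 17132 genes. In 5xFAD against WT all 10 markers had positive fold changes, with a median log2 of 0.70 beside 0.027 over all genes tested, and 0 of 10 were called where 7.26% of all genes were. The group means behind this were, for Tnnt1, 8.71 ± 14.9 CPM in 5xFAD-Dp16, 16.1 ± 10.8 CPM in 5xFAD, 7.92 ± 13.7 CPM in Dp16 and 6.37 ± 10.5 CPM in WT (SD, n = 4 each). Its log2 fold change in 5xFAD against WT was 1.64 (SE 1.76, 95% interval -2.22 to 5.49, adjusted p = 0.604). Tcf7l2 had 1.30 (SE 1.32, interval -1.59 to 4.19, adjusted p = 0.581) and Prkcd 0.90 (SE 0.82, adjusted p = 0.535). Calb2 had the smallest SE at 0.40 with a log2 fold change of 0.61 (interval -0.27 to 1.49, adjusted p = 0.375). The SEs of the 10 genes ran between 0.404 and 1.76, where the median gene had 0.152. Of the 6 libraries with high markers 3 were 5xFAD and 1 was WT, and the member median moved to 1.45 without WT 4 and to 0.473 without WT 16, the range over fits that left out 1 library.

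In 5xFAD-Dp16 against 5xFAD all 10 fold changes were negative, with a median of -0.71 beside -0.0296 over all genes, and 0 of 10 were called where 0.304% of all genes were. Slc17a6 had -1.10 (SE 0.80, adjusted p = 0.467) and Tcf7l2 -1.04 (SE 1.27, adjusted p = 0.676). Calb2 had the lowest adjusted p of the 10, 0.263, at a log2 fold change of -0.88 (SE 0.41, interval -1.76 to 0.0017). The 2 comparisons share the 5xFAD libraries, which held 3 of the 6 high ones. The median was -1.41 without 5xFAD-Dp16 1 and -0.37 without 5xFAD-Dp16 9.

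The other comparisons gave small medians whose sign rested on single libraries. In Dp16 against WT the median was 0.23 with 7 positive and 3 negative fold changes, 0 of 10 called where 0.228% of all genes were, and it turned to -1.01 without Dp16 14 and to -0.0816 without WT 16, and was 0.964 without WT 4. In 5xFAD-Dp16 against Dp16 it was -0.17 with 3 positive and 7 negative, 0 called beside 3.02% of all genes. It was 0.902 without Dp16 14, 0.114 without 5xFAD-Dp16 8, 0.151 without 5xFAD-Dp16 9 and -0.815 without 5xFAD-Dp16 1. In 5xFAD-Dp16 against WT it was 0.12 with 6 positive and 4 negative, 0 called beside 3.2%. It was 0.576 without WT 4, and it turned negative without 5xFAD-Dp16 1 (-0.804), Dp16 14 (-0.161), WT 2 (-0.0831), WT 7 (-0.136) or WT 16 (-0.0205).

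The Dp16 by 5xFAD interaction had a median of -0.88 over the 10 genes, 9 of them negative, with 0 called among the markers and 0.0% among all genes, and it was 0.296 without Dp16 14 and -1.75 without WT 4. Females against males had a median of -0.20, 9 of 10 negative, with 0 called beside 0.0642% of all genes, and it was 0.209 without Dp16 14 and 0.127 without WT 4. In all 7 comparisons 0 of the 10 markers had an unadjusted p below 0.05 by edgeR's quasi-likelihood test. DESeq2 called 0 of them in each comparison and had 1 at an unadjusted p below 0.05, in 5xFAD-Dp16 against 5xFAD. The 6 libraries of high markers were also left out together. They were picked by the levels of these same genes and 1 library of 5xFAD remained, whose spread was assumed to be that of the other groups, so the values are a description and no test. The medians were then -0.0648 in 5xFAD against WT, 0.0496 in 5xFAD-Dp16 against 5xFAD and -0.147 in Dp16 against WT. They were 0.191 in 5xFAD-Dp16 against Dp16, -0.0197 in 5xFAD-Dp16 against WT, 0.217 in the interaction and 0.0236 in females against males.

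**Figure D5:**
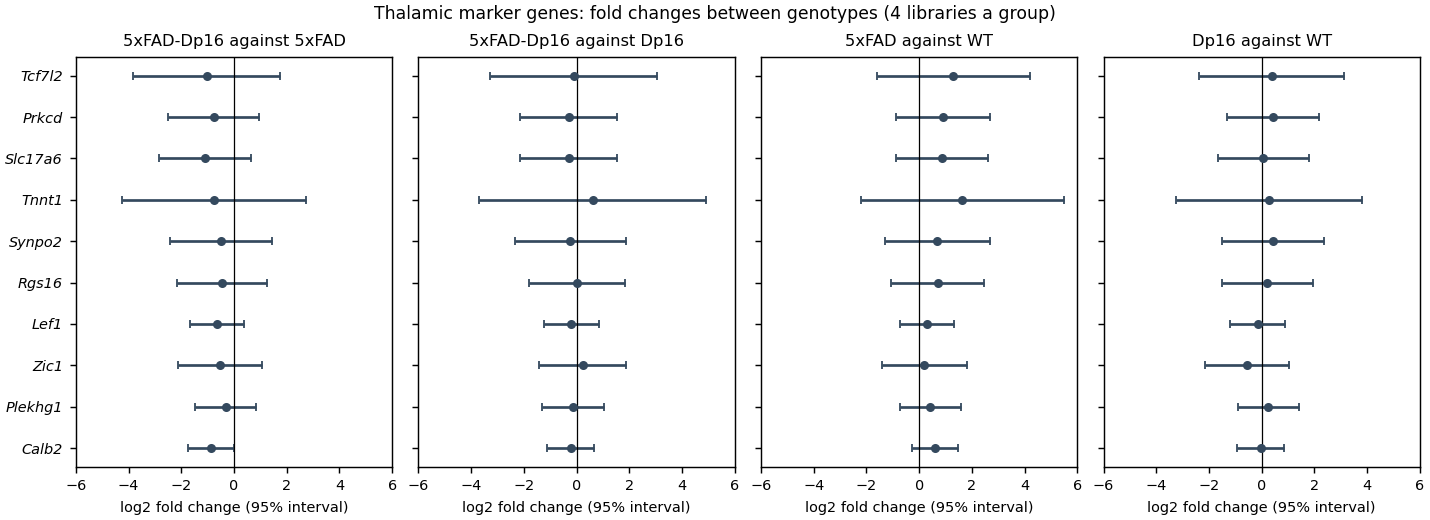
Log2 fold change of each thalamic marker gene in the genotype comparisons, with 95% intervals from edgeR's quasi-likelihood fit of all 16 libraries. All 10 points are above 0 in 5xFAD against WT and below 0 in 5xFAD-Dp16 against 5xFAD, and every interval includes 0.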

How the data were processed

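Per the labels, TRIzol extraction of hippocampal RNA was followed by poly(A) selection and stranded library preparation (Tecan/Nugen Universal Plus mRNA kit) for paired-end Illumina sequencing. HISAT2 2.1.0, SAMtools 1.5, HTSeq 0.6.1 and the build GRCm38 are named in the submitters' processing notes. How strand and multiply matching reads were handled in counting is not given in the sources used here. The authors deposited read counts per gene for 55385 genes and RPKM values, and each RPKM was checked against its count scaled by the column total and a single length per gene.

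Counts were fitted with edgeR 4.0.16 in R 4.3.3 on all 16 libraries (filterByExpr with a minimum count of 10, TMM scaling, robust quasi-likelihood fit with group and sex), and the code was tested on simulated data. A gene was called at a Benjamini-Hochberg adjusted p below 0.05 over the 17132 genes tested. Levels are TMM-scaled CPM, with SD over 4 libraries per group. Log2 CPM used a prior count of 2. The 7 comparisons were the 5 pairs of genotypes given, the interaction and sex. Alternatives were DESeq2 1.42.0, limma 3.58.1 on log2(RPKM + 0.1), relative log expression scaling, a filter of 1 CPM in 4 libraries, no filter beyond 1 count, no sex term, only the groups compared, and leaving out each library. The fit without the 6 libraries of high markers was not planned in advance. The design text counts 4 mice per group, and no label states a batch.

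The members and the gene lists were chosen with earlier results of these data known. Every member is named. Other genes named are the 8 nearest to the members' mean pattern (among genes of mean log2 CPM of 0 or more) and, from lists, those at the extremes of range, those called or those that separate the same 6 libraries, the last chosen after their values were seen. Markers with few reads, such as Tnnt1 in the 10 libraries of low marker score, carry more counting error. The SEs also hold the spread between libraries. Tcf7l2, with 117 reads in its lowest library, had an SE of 1.32 in 5xFAD against WT.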

Additional observations from a re-analysis of the deposited data

Results flagged for a closer look

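Within each group of 4 libraries, the gap between the highest or lowest library and its nearest neighbour was divided by the group's range, and values above Dixon's critical value of 0.829 were picked out. Of 40 sets (10 genes in 4 groups) 21 passed, and the 10 genes share their libraries. The critical value is meant to pass about 1 in 20 sets of independent values with a normal spread. The share over all genes tested was not worked out, and the members were chosen with earlier results of these data known. The count is thus a description and no test. The library set apart was always the highest of its group. In 5xFAD-Dp16 it was library 1, with ratios of Tcf7l2 0.972, Slc17a6 0.869, Tnnt1 0.99, Synpo2 0.944, Rgs16 0.887 and Plekhg1 0.905. In Dp16 it was library 14, with Tcf7l2 0.989, Prkcd 0.929, Slc17a6 0.928, Tnnt1 0.947, Synpo2 0.977, Rgs16 0.87, Lef1 0.874 and Plekhg1 0.899. In WT it was library 4, with Tcf7l2 0.971, Slc17a6 0.846, Tnnt1 0.968, Synpo2 0.917, Rgs16 0.865, Lef1 0.934 and Calb2 0.89. No gene passed in 5xFAD, where 3 of 4 libraries were high. Tnnt1 in 5xFAD-Dp16 1 stood at 31.1 CPM against at most 1.35 CPM in the other libraries of its group, and Tcf7l2 in Dp16 14 at 141.5 CPM against at most 7.72 CPM. The cause was not tested.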

How the results depend on the processing

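No marker was called in any of the 7 comparisons by edgeR, by DESeq2, by limma on log2 RPKM, with relative log expression scaling, with a filter of 1 CPM in 4 libraries, or in any of the 16 fits that left out 1 library, where the count was 0 throughout. Nor was any called without the sex term (6 comparisons, sex not among them) or with only the groups compared (the 5 pairs of genotypes). Calls came from the fit with no filter beyond 1 count, on 32180 genes. It called 2 markers in Dp16 against WT, 8 in 5xFAD against WT, 9 in 5xFAD-Dp16 against 5xFAD, 0 in 5xFAD-Dp16 against Dp16, 1 in 5xFAD-Dp16 against WT, 6 in the interaction and 3 in females against males. All genes tested were called there at 1.12%, 8.37%, 5.15%, 2.77%, 2.93%, 0.901% and 1.03% in the same order. Fold changes moved little, but the SE in 5xFAD against WT was 0.12 for Tcf7l2 in place of 1.32 and 0.192 for Tnnt1 in place of 1.76. In that fit the prior degrees of freedom were infinite for the 10 markers and for the median gene, so each marker took the spread of the trend, while in the filtered fit they were 0.625 to 1.93 for the markers. Over all alternatives the sign of a marker's fold change differed in 30 of 240 values in Dp16 against WT, 7 of 240 in 5xFAD against WT, 5 of 240 in 5xFAD-Dp16 against 5xFAD, 39 of 240 in 5xFAD-Dp16 against Dp16, 30 of 240 in 5xFAD-Dp16 against WT, 20 of 230 in the interaction and 33 of 220 by sex. These counts include the fit without the 6 libraries of high markers, which were picked by these same genes. That fit had 5 positive and 5 negative markers in both 5xFAD against WT and 5xFAD-Dp16 against 5xFAD. Fits that left out 1 library changed 2 signs in 5xFAD against WT and 0 in 5xFAD-Dp16 against 5xFAD. No paired analysis was possible because the library numbers are unique to each library. With 4 libraries a group and log2 SDs up to 2.27, intervals span several-fold, and a p that misses the threshold does not show that genotypes had equal levels.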

Other observations

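Other lists that a hippocampal dissection could touch held some genes that separated the 6 libraries of high thalamic markers, where 1.45% of all genes tested were higher in all 6 and 2.07% lower. Of 11 habenula genes 2 (18.2%) were higher in all 6, and the list's score was 0.305 to 1.5 in the 6 and -0.373 to 0.217 in the 10. Pou4f1, a factor of habenular neurons, was at 0.131 to 5.76 CPM in the 6 and 0 to 0.122 CPM in the 10, a narrow gap near 0 CPM. Chrna3, a nicotinic receptor gene, was at 1.14 to 4.36 CPM in the 6 and 0.137 to 0.972 CPM in the 10. The rest of the habenula list overlapped, and none was lower in all 6. Tac2 was at 1.09 to 3.8 CPM in the 6 and 2.53 to 5.79 CPM in the 10. Gpr151 was at 0.131 to 0.624 CPM in the 6 and 0.123 to 0.595 CPM in the 10. Nwd2 was at 14.2 to 36.6 CPM in the 6 and 31.6 to 46.7 CPM in the 10. Of 9 neocortex genes 2 were lower in all 6. Fezf2, a factor of deep-layer projection neurons, was at 10.7 to 34.5 CPM in the 6 and 37.2 to 57.1 CPM in the 10, and Hs3st4 was at 49.7 to 80.4 CPM in the 6 and 83.2 to 120.0 CPM in the 10. In the subiculum list Slc17a6, itself a thalamic marker, was the 1 gene of 6 that separated them. Of 10 inhibitory neuron genes 2 were lower in all 6 libraries, and 1 of 9 striatum genes and 1 of 7 hypothalamus and septum genes tested were too. None of 5 genes of newly formed oligodendrocytes separated them. Among these lists and those of the report, the genes called were Wfs1 and Man1a, given above, and Plk5. Plk5 was 1 of 9 genes of the dentate granule cell list. It was lower in 5xFAD-Dp16 against 5xFAD (log2 fold change -1.12, SE 0.17, adjusted p = 0.0049 by edgeR), where 0.304% of all genes were called. It was also lower in 5xFAD-Dp16 against WT (-0.96, SE 0.17, adjusted p = 0.00296 by edgeR), where 3.2% of all genes were called.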
